A study of Mus musculus with 4 samples.

Results

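Bdnf, Ntf3, Ngfr, Ntrk2 and Ntrk3 encode neurotrophins and their receptors, and their levels were described in the dentate gyrus of 4 samples of handled mice. A gene entered if a probe set of the array carried its symbol and no other. That held for 3 of the 5 genes (Bdnf, Ntrk2 and Ntrk3), each with 1 probe set, out of 10833 such probe sets for 8251 genes. Ntf3 and Ngfr were not analysed here. The mice were young C57BL/6J males whose only treatment was handling. Their RNA was extracted 1, 2, 4 or 6 h after other, experimental mice had received a last shock, with 1 sample at each hour. Samples of shocked mice were not analysed here. How many mice a sample holds is not given in the sources used here.

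Neurotrophins are small secreted proteins that support the survival, growth and synapses of neurons. They are made as longer precursors, which proteases cut to the mature form. BDNF, the product of Bdnf, binds the receptor tyrosine kinase TrkB (Ntrk2), and neurotrophin-3 (Ntf3) binds TrkC (Ntrk3). All of them also bind the p75 receptor (Ngfr), a member of the TNF receptor family. In the dentate gyrus, granule cells make BDNF and carry it into their mossy fibre axons, and neuronal activity raises transcription of Bdnf from some of its several start sites.

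RefSeq's promoter table (build GRCm38.p6) holds no start site for Ntrk3, so no Ntrk3 sequence was searched. It holds 1 start site for Ntrk2 and 7 for Bdnf. The array gives 1 value for Bdnf and does not tell these starts apart. The 250 bases before each start were searched on both strands for the cyclic AMP response element TGACGTCA, for its variant TCACGTCA and for the E-box CACGTG. The Bdnf start at base 109692436 of chromosome 2 had the 1 match among the 7 Bdnf windows, the variant TCACGTCA, 38 to 31 bases before the start. The single Ntrk2 window held none of the 3 motifs. Of 32851 windows of the same length, 0.35% held the variant on either strand, 1.55% held TGACGTCA and 6.02% held CACGTG. Each share is for 1 motif in 1 window, while 3 motifs were searched in 7 Bdnf windows. The shares are thus not the chance of a match in Bdnf, which was not tested. The stretches below are the 100 bases before that start, before the Bdnf start furthest upstream and before the Ntrk2 start, all on the plus strand and shown so that the matched and unmatched stretches can be compared. Capitals mark the match, which is a run of letters and not a measured site.
Bdnf, chr2:109692336-109692435: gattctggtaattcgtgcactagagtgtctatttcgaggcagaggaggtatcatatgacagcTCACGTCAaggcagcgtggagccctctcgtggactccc
Bdnf, chr2:109674600-109674699: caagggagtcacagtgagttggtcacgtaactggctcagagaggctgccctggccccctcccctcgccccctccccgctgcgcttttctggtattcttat
Ntrk2, chr13:58806469-58806568: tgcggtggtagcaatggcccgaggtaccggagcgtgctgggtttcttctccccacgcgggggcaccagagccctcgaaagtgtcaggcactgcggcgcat

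Values are array intensities on a linear scale, listed in the order 1, 2, 4 and 6 h. A value at an hour comes from 1 array, so it has no replicate error, and the hour cannot be told apart from the individual sample. In such tissue RNA, fewer cells of a type and less RNA per cell also cannot be told apart. The arrays had medians between 184.8 and 212.8, the highest at 4 h. Of 10 granule cell markers with values, 9 were past the filter on low intensity (a mean of at least 120). Among them was the granule cell factor Prox1 (named, like Ttr, after its values were seen) at 184.2, 153.5, 182 and 249. Of CA field pyramidal and mossy cell markers 10 of 11 were past it, and of all 8251 genes 5527 were. The count thus does not set granule cells apart. The summed intensity of granule cell markers lay between 40045 and 43873. Most of it at each hour came from 1 gene, Ncdn (35841, 32035, 37162 and 33423), so the sum says little about the other markers. Sums lay between 115876 and 126573 for astrocyte markers, 18155 and 19355 for oligodendrocyte markers, and 9106 and 9738 for microglia markers. For endothelial and mural cell markers they lay between 2659 and 3795. Choroid plexus markers, which mark a neighbouring tissue, had 4 of 8 genes past the filter and summed to 2586, 5535, 6730 and 3426, lowest at 1 h. At 1, 2 and 6 h most of that sum came from Igf2, which read 1849, 4402, 2955 and 2521 over the 4 hours. None was listed at 0. Aqp1 was under the floor (given below) at 1 h alone, Cldn2 at 1 and 2 h, and Slc4a5 at 1, 2 and 6 h. Transthyretin (Ttr), the defining gene of that epithelium, read 81.3, 234, 2408 and 191.

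Bdnf, the ligand gene, was bright and nearly level. Its probe set, 102727_at, read 4998, 3748, 3754 and 3831. The 1 h sample was the highest, and the other 3 lay within 1.02-fold of each other. The mean was 4080 ± 611 (SD over the 4 hours, n = 4), above 97.1% of all probe sets with a single symbol. From the highest to the lowest hour the values spanned 1.33-fold, where the median span of the 6500 probe sets past the filter was 1.53-fold and that of the brightest 1625 of them 1.34-fold. At 1 h Bdnf exceeded the mean log2 of its other 3 values by 0.4, or 1.32-fold, and 829 of the 6500 probe sets were at least as far above theirs. With each array scaled to its median, the span was 1.53-fold and the lowest hour was 4 h. Under it the median tested probe set lay at −0.15 log2 at 4 h relative to its remaining hours, and at 0.04 in the values as deposited.

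Ntrk3, the receptor gene for neurotrophin-3, varied most. Its probe set, 95334_at, read 783, 223, 264 and 344.5. The 1 h sample stood above the other 3, which lay within 1.54-fold of each other, and the 2 h sample was the lowest. The mean was 404 ± 258 (SD over the 4 hours, n = 4), and the SD in log2 was 0.8, against 0.2 for Bdnf. The span was 3.51-fold, wider than that of 94.6% of the probe sets past the filter. Of the 1625 probe sets ranked around it by mean intensity (the second quartile), 48 (2.95%) spanned at least as much, and their median span was 1.59-fold.

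At 1 h Ntrk3 exceeded the mean log2 of its other 3 values by 1.52, or 2.87-fold, and 11 of 6500 probe sets, Ntrk3 included, were at least as far above theirs. In log2 it was 1.81 above 2 h, 1.57 above 4 h and 1.19 above 6 h. The central 95% of all tested probe sets ended at 1.04, 1.23 and 1.03 for those pairs of arrays, so Ntrk3 lay beyond it in each pair that holds the 1 h sample. Between 2, 4 and 6 h its differences, from −0.24 to −0.63, were inside the central 95% of all probe sets. The corresponding values of Bdnf, 0.42, 0.41 and 0.38 at 1 h against 2, 4 and 6 h, were inside it as well. The 1 h sample also had the lowest sum of choroid plexus markers, given above, and its part in these values was not tested. The summed intensity of interneuron markers was 27605, 27567, 24809 and 25696, and that of CA field pyramidal and mossy cell markers was 11501, 11952, 14046 and 11472. A few bright genes carry these sums. Single markers of the lists, named after their values were seen, differed at 1 h from the mean log2 of their other hours in both directions, by 0.66 for Neurod6, 0.42 for Pvalb, −1.13 for Ccn3 and −2.05 for Pou3f1. The part of these cells in the Ntrk3 value was not tested.

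Ntrk2, the gene of the BDNF receptor TrkB, gave no course that can be read. Its probe set, 99069_at, read 19.4, 35.5, 16.5 and 13.6. All 4 values were under 38.3, the 20th percentile of all values, which served as a floor below which values have no order. Of all 10833 probe sets, 754 (6.96%) were under the floor at every hour. Among genes of the pathway lists, picked out after their values were seen, the brightest probe sets of Mmp7, Shc3, Irs1, Met and Ret did the same. So did that of the glucocorticoid receptor gene Nr3c1, at 22.1, 4.1, 9.5 and 2.3. A probe set under the floor shows only that it was not above the floor, and no level of Ntrk2 RNA or of its isoforms follows from it.

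**Figure D1:**
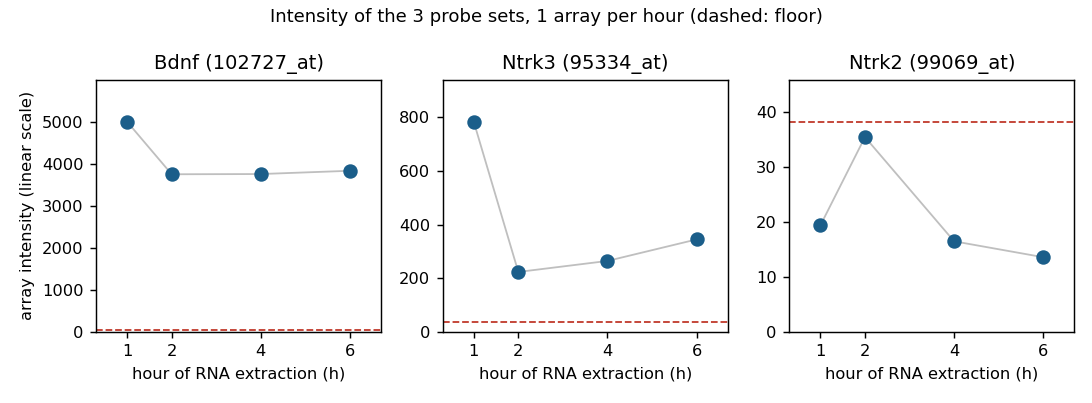
Array intensity (vertical axis, linear, from 0, scaled per panel) of the probe sets of Bdnf, Ntrk3 and Ntrk2 against the hour of RNA extraction, with 1 array per point, a grey line joining the points and no error bars. The dashed line is the floor of 38.3. Bdnf and Ntrk3 are highest at 1 h, at 4998 and 783, and Ntrk2 is under the floor at all 4 hours.

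**Figure D2:**
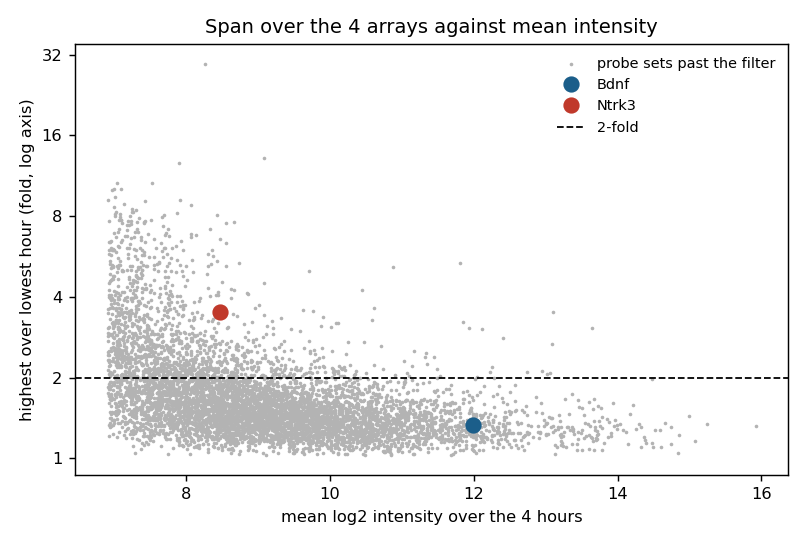
Highest over lowest hour (vertical, fold, log axis) against mean log2 intensity (horizontal) for the 6500 probe sets past the filter, 1 grey point each, with Bdnf and Ntrk3 marked and a dashed line at 2-fold. Spans are wider at low intensity. Bdnf lies at 1.33-fold among bright probe sets, and Ntrk3 lies above the line at 3.51-fold.

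No linear trend with the hour was called for Bdnf or Ntrk3. With limma the slope was −0.06 ± 0.06 log2 per h for Bdnf and −0.15 ± 0.13 for Ntrk3 (SE moderated over all probe sets, n = 4). Both had an adjusted p of 0.99995 by limma over all 6500 probe sets. The unadjusted p values were 0.32 and 0.268. Of all probe sets 0 (0%) were called at an adjusted p of 0.05, and 136 had an unadjusted p under 0.05. The 1 h sample set the direction of both slopes: without it they were 0.01 for Bdnf and 0.16 for Ntrk3, and the spans were 1.02-fold and 1.54-fold. A span over 2-fold between hours, counted without a test, was found for 1 of the 2 probe sets past the filter, Ntrk3, and for 21.6% of all probe sets past the filter. In the quartile of mean intensity that holds Ntrk3 it was found for 21.9%. Without the 1 h sample it was found for neither, and for 15.7% of all probe sets past the filter. These shares are a background for the span of a single probe set over the same samples and carry no test.

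The 1 h sample held the highest of the 4 values for 23% of tested probe sets, as it did for Bdnf and Ntrk3. For 496 of 6500 (7.63%) the highest hour was 1 h and the lowest 2 h, the order of both genes. The genes with the courses nearest to theirs were found by the distance between log2 values centred on their own mean, among 5506 genes. For Bdnf these were Col4a1, a collagen of basement membranes (655, 504, 514 and 514, distance 0.05), and Syncrip, an RNA-binding protein (282, 203, 207 and 208, distance 0.05). Pearson's r over the 4 hours was 0.998 for Col4a1 and 0.999 for Syncrip. A second Syncrip probe set read 178.6, 104.7, 143.7 and 178.6 and was not highest at 1 h alone.

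For Ntrk3 the nearest were Lamc1, a laminin subunit of basement membranes (469, 117, 123 and 218.5, distance 0.34, r = 0.985), and Six2, a homeobox transcription factor (344, 103.8, 123 and 111, distance 0.44, r = 0.952). A second Lamc1 probe set read 49.8, 94.1, 133 and 9.9, with its highest value at 4 h. With 4 points such likeness is common: 89 genes had an r over 0.95 with Bdnf and 92 with Ntrk3. These values describe 4 arrays, and no test was made of them.

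**Figure D3:**
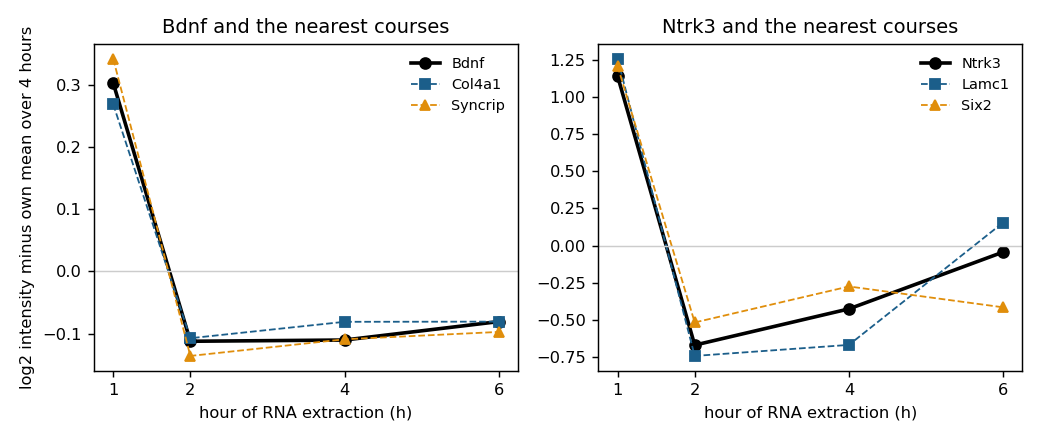
Log2 intensity minus each gene's own mean over the 4 hours (vertical) against the hour of RNA extraction (horizontal), for Bdnf with Col4a1 and Syncrip (left) and for Ntrk3 with Lamc1 and Six2 (right), 1 array per point and scales that differ between panels. All 6 genes are highest at 1 h. Bdnf moves over 0.42 log2 and Ntrk3 over 1.81 log2.

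The other genes of the pathway were taken from lists, with the brightest probe set for each gene. Over all 5527 genes past the filter, 2773 had a positive and 2754 a negative slope, 1103 (20%) spanned over 2-fold, and the median span was 1.51-fold. In none of the 6 pathway lists was any gene called by limma in either direction, and 1 gene, of the list of other neurotrophic factors, had an unadjusted p under 0.05, where 114 of the 5527 genes did. Over the 6 lists, 23 of 99 different genes past the filter spanned over 2-fold. Without the 1 h sample that count was 18 of 101, where 14.3% of all genes spanned over 2-fold. Without the 2 h sample it was 15 of 96 (14.1% of all genes), without the 4 h sample 8 of 97 (10.7%) and without the 6 h sample 13 of 95 (14.6%). The same shares are the background for each list when a sample is left out. Neither they nor the 20% were matched for intensity, and spans are wider at low intensity. The filter was applied anew each time, so some genes left it with a sample: Gdnf without 4 h, Pcsk5 without 6 h, Crem without 2 or 6 h and Ikbkb without 1, 4 or 6 h. These genes passed the filter partly through the hours in which they were high, and their spans are descriptions of that.

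Genes that process neurotrophin precursors came first in the chain of signalling. Of 14 with values, 6 were past the filter, 3 with positive and 3 with negative slopes, and 0 were called. Carboxypeptidase E (Cpe), which also sorts the BDNF precursor into secretory granules, read 22248, 20005, 17291 and 18705, and in a second probe set 13749.6, 11536, 10150.3 and 12599. Serpini1, or neuroserpin, an inhibitor of tissue plasminogen activator, read 3241, 4858, 3766 and 4115. Furin, a convertase that cuts neurotrophin precursors, and Plat, the plasminogen activator itself, were read after their values were seen: Furin at 712, 757, 738 and 683, and Plat at 636, 824.5, 925 and 1004, higher at each later hour (slope 0.12 ± 0.07 log2 per h, adjusted p = 0.99995 by limma).

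The span passed 2-fold in 2 of the 6 processing genes (33.3%), against 20% of all genes, a share not matched for intensity. Plasminogen (Plg), the precursor of the protease plasmin, read 216, 316, 128 and 97.6, and a second Plg probe set 90.3, 137, 84.7 and 137. The convertase gene Pcsk5 read 72.9, 94.3, 199.9 and 157, while its other probe sets read 66.5, 137, 27.8 and 97.1, and 136.5, 166, 64.1 and 112. The probe sets of Pcsk5 thus put 4 h highest in one case and lowest in the others. By the probe sets given first, Plg had a mean log2 of 7.41 and Pcsk5 of 6.92, where the filter was at 6.91. Without the 4 h sample 1 of 6 spanned over 2-fold, and without the 6 h sample 1 of 5. When 4 h was left out, the brightest Pcsk5 probe set was the last of these, so that count does not follow the Pcsk5 probe set given first.

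Below the Trk receptors, adaptors and kinases carry the signal to Ras, MAP kinases, phospholipase C and AKT. Of 38 with values, 25 were past the filter, 15 with positive and 10 with negative slopes, and 0 were called. The kinase genes Camk2b (13283, 11472, 11284 and 13783) and Map2k1 (4069.9, 2971, 2522 and 3758), which encodes MEK1, were higher at 1 and 6 h than at 2 and 4 h. A second Map2k1 probe set was near or under the floor, at 4.7, 31.7, 63 and 6.9. Grb2, the adaptor that links Trk receptors to Ras, had the widest span of the list (2.11-fold), at 1619, 826, 767 and 1464. Its order was like theirs. Plcg1, the phospholipase that Trk receptors bind, read 270.1, 209, 332 and 414, a 1.98-fold span. Over 2-fold there was 1 of 25 (4%), Grb2, against 20% of all genes, a share not matched for intensity. Without the 1 h or the 4 h sample there were 0.

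Partners and effectors of the p75 receptor had values for 26 genes and 23 past the filter, with 12 positive and 11 negative slopes and 0 calls. Rac1, a small GTPase of the actin cytoskeleton, read 16326, 13311, 11496 and 15557. Maged1, or NRAGE, which binds the p75 receptor, read 5123, 5800.1, 5926 and 5680.4. Among those over 2-fold, Ikbkb, a kinase that activates NF-kB, read 138, 58.7, 188 and 162, lowest at 2 h. Psen2, a presenilin of the gamma-secretase that cuts p75, read 191, 349, 543 and 306, lowest at 1 h. In all, 6 of 23 (26.1%) spanned over 2-fold, against 20% of all genes, a share not matched for intensity. Without the 2 h sample 2 of 23 did, and without the 4 h sample 2 of 21.

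Transcription regulators of Bdnf had 14 of 17 genes past the filter, 5 with positive and 9 with negative slopes, and 0 called. Mef2d and Mef2a, activity-dependent transcription factors, read 8177, 6164, 5503 and 7132, and 2354, 2136, 1425 and 2809. A second Mef2a probe set was near or under the floor, at 4.5, 25.7, 53.6 and 5.8. Crem, a factor that binds the cyclic AMP response element, was the 1 gene of 14 (7.14%) over 2-fold, at 111, 179, 76 and 186. Without the 2, 4 or 6 h sample there were 0, Crem being under the filter without 2 or 6 h. A second Crem probe set read 37.9, 86.9, 51.4 and 76.1. The brightest Creb1 probe set, read after its values were seen, was under the filter at 33.7, 98.2, 36.6 and 104. Of the 14 genes 4 were highest at 1 h, none by as much as Ntrk3. Their 1 h values differed from the mean log2 of their other hours in both directions. The differences ran from −0.73 for Rcor1 to 0.46 for Rest, both named after their values were seen. Mef2d was at 0.39 and Bdnf at 0.4.

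Genes that BDNF is known to induce in neurons had 22 of 24 past the filter, 13 with positive and 9 with negative slopes, and 0 called. Npy, the neuropeptide Y precursor gene, read 2097, 1775.5, 1516 and 1478, lower at each later hour (slope −0.1 ± 0.06 log2 per h, adjusted p = 0.99995 by limma). Limk1, a kinase of the actin cytoskeleton, was nearly level at 1565, 1487, 1474.5 and 1592, and a second Limk1 probe set read 370.1, 314, 292 and 301, highest at 1 h. The span was widest for 2 immediate early genes. Junb read 379, 222, 94.5 and 379, but another of its probe sets read 98, 55.4, 44.2 and 48.2 and was not as high again at 6 h. Ier2 read 209.5, 240.5, 224 and 93.9. Over 2-fold there were 7 of 22 (31.8%), against 20% of all genes, and without the 4 h sample 2 of 22 and without the 6 h sample 3 of 22. Egr1, another immediate early gene over 2-fold, named after its values were seen, was lowest at 1 h (546, 1349, 861 and 817). The list was mixed: 3 of its 22 genes were highest at 1 h, 7 at 2 h, 6 at 4 h and 6 at 6 h.

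Neurotrophic factors of other families, with their receptors, had 12 of 18 genes past the filter, and 11 of the 12 had a negative slope with a median of −0.1 log2 per h (0 for all genes). No gene was called. Manf read 959, 867, 918 and 697, and Mdk, or midkine, 680.1, 491, 490.2 and 656. The widest spans were those of Gdnf, the glial cell line-derived neurotrophic factor gene, at 212.5, 93.5, 382 and 84, and of Gfra3, a receptor of that family, at 215, 172, 473 and 109.7. Both were highest at 4 h and lowest at 6 h. A second Gdnf probe set was also highest at 4 h, at 59.7, 24.4, 144 and 25.4. Over 2-fold there were 6 of 12 (50%), against 20% of all genes, and without the 4 h sample, when Gdnf was under the filter, 3 of 11. The mean log2 of these 6 ran from 7.06 to 8.42, where the filter was at 6.91. The 20% was not matched for intensity, so it is no background for genes as dim as these. Choroid plexus markers were highest in sum at 4 h too. Endothelial and mural cell markers, like this list, were lowest in sum at 6 h: theirs was 3465, 3567, 3795 and 2659, and that of the list 4975, 4418, 4754 and 3626. Of 8 such markers past the filter 6 had negative slopes, with a median of −0.067 log2 per h. The part of either cell type in these values was not tested.

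**Figure D4:**
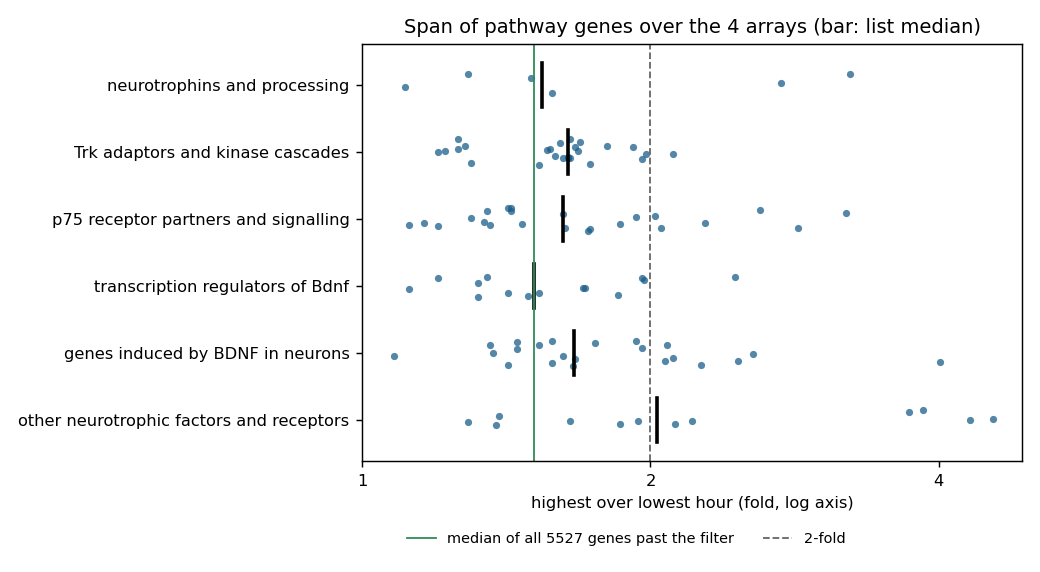
Highest over lowest hour (horizontal, fold, log axis) for the genes past the filter in each of 6 pathway lists, 1 point per gene, with a black bar at the list's median, a green line at the median of all 5527 genes (1.51-fold) and a dashed line at 2-fold; vertical scatter within a list has no meaning. The median span runs from 1.51-fold for transcription regulators of Bdnf to 2.03-fold for other neurotrophic factors and receptors.

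**Figure D5:**
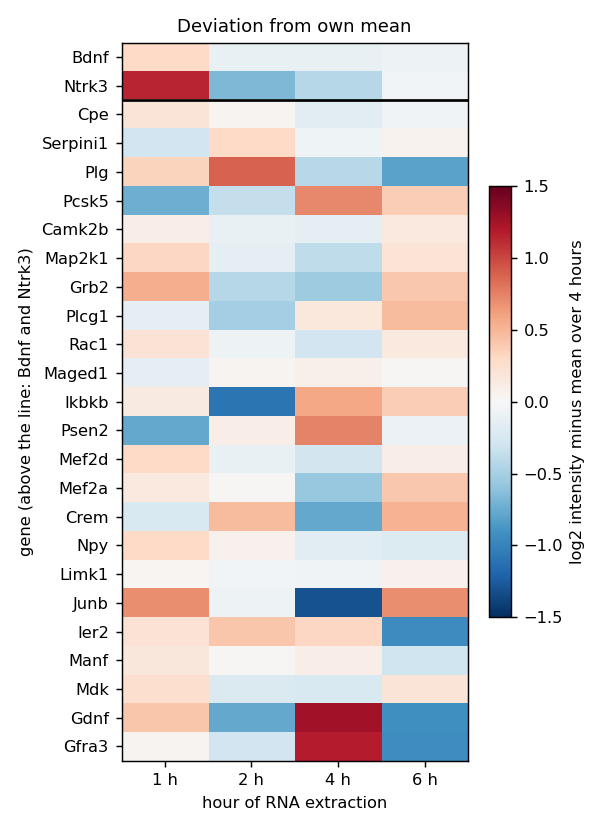
Log2 intensity minus the mean over the 4 hours (colour) at each hour (columns) for Bdnf and Ntrk3, above the line, and for the pathway genes described in the text (rows), 1 array per column. In the 1 h column Ntrk3 is the deepest red, while Gdnf and Gfra3 are highest at 4 h and Junb is lowest there.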

How the data were processed

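The authors deposited linear array intensities, 1 for each probe set in each sample, with scanner and scaling not given in the sources used here. Trimmed of 2% of probes at each end, every array averaged 500.3, and values were used as deposited. Quantiles still differed: the 4 h array had the highest 20th percentile (45.5) and the lowest 98th percentile (5638.9). Depth has no meaning for arrays; their number limits the precision. Array controls (66) and probe sets with several symbols (396) or none (1193) were left out. Of 10833 others, 10817 matched RefSeq (GRCm38.p6) by identifier. Intensities under the 20th percentile (38.3) were set to it before log2. Probe sets with a mean log2 of at least 6.91 (40th percentile) were tested: 6500, of 5527 genes, 24 with a value under the floor, where spans are lower bounds. A line on the hour was fitted across all of them with limma 3.58.1 in R 4.3.3 (lmFit, eBayes with intensity trend, two-sided, 2 residual degrees of freedom, prior degrees of freedom of 9.8 at the median), with Benjamini-Hochberg adjustment. The fit was tested on simulated data. P values and SEs rest on the scatter of 4 samples about a line, moderated with that of the other probe sets. With 9.8 prior against 2 residual degrees of freedom, they do not measure a probe set's own scatter alone.

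The genes, lists and tests were chosen with earlier results of these data known. Named genes are the 3 members, in each pathway list the 2 brightest genes and the 2 with the widest span (none under the floor), the 2 nearest courses, the 2 brightest genes of each marker list (here given as list sums, except Ncdn and Igf2) and genes marked as chosen after their values were seen. Alternatives were other floors, filters, scalings, probe set summaries and fits, and leaving out each sample.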

Additional observations from a re-analysis of the deposited data

Results flagged for a closer look

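The Bdnf value at 1 h stood apart from the other 3 samples. The gap between it and the next highest hour was 0.934 of the whole range, past the limit that Dixon's test sets for 4 values, at 4998 against 3748, 3754 and 3831. Of the 6500 tested probe sets, 360 (5.54%) had a lowest or highest sample past that limit, and chance flags about 1 in 20 groups. The share was 0.908 with quantile normalisation, and 0.667, under the limit, with each array scaled to its median, both alternatives chosen after seeing the data. The same share was 0.783 for Ntrk3 and did not pass.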

How the results depend on the processing

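Under the alternatives with all 4 samples, no trend was called for Bdnf or Ntrk3, both slopes were negative and Ntrk3 alone spanned over 2-fold. Leaving out each sample in turn, the slope ran from −0.12 to 0.01 log2 per h for Bdnf and from −0.43 to 0.16 for Ntrk3, positive in both only without the 1 h sample. Between 0 and 1 of the 2 probe sets then spanned over 2-fold, between 0 and 18 of the 6500 had a called trend (with 1 residual degree of freedom), and between 8 and 18 pathway genes spanned over 2-fold. By list, in counts added after seeing the data, these were 1 to 2 processing genes, 0 to 1 Trk cascade genes, 2 to 4 p75 partners, 0 to 1 regulators of Bdnf, 2 to 6 genes induced by BDNF and 3 to 5 other neurotrophic factors. Fewer samples make a span narrower by construction. Signal over background limits Ntrk2, which had no value above the floor, and 1 array per hour limits all values.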
